A study of Homo sapiens with 4 samples.

Results

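The translation initiation factor genes are the genes whose symbols begin with EIF followed by a digit from 1 to 6, without the EIF2AK kinases and without hyphenated readthrough names. The rule used names only, and it found 49 of the 12119 genes listed across 4 RNA libraries. All 4 came from MDA-MB-231, a mesenchymal cell line from a human breast tumour without hormone receptors. RNA that came down with beads carrying an anti-PABPC1 antibody (the pulldown) was set against input RNA. RNA of cells in which the lncRNA LINC00882 had been silenced by transfection (si_LINC00882) was set against RNA of cells that received a control silencer (si_NC). All cells were grown in L15 medium with serum, and each group was 1 library, so no difference below could be tested and each describes these libraries only. The level of LINC00882 was not analysed here.

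Initiation factors bring the small ribosomal subunit, the initiator tRNA and the mRNA together. EIF4E binds the cap, EIF4G1 bridges it to the RNA helicase EIF4A and to PABPC1 on the poly(A) tail, and EIF3 links this assembly to the ribosome. EIF2 carries the initiator tRNA, EIF5 and EIF1 act at start codon choice, and EIF5B joins the large subunit. Many genes of the translation machinery have mRNAs that begin with a C and a run of pyrimidines, the terminal oligopyrimidine (TOP) motif, which ties their translation to mTOR signalling. In humans the mRNAs of EIF3E, EIF3F, EIF3H and EIF4B belong to this class.

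The TOP motif lies at the start of the transcript, so the bases around the annotated start were read for 41 of the 49 genes (RefSeq, GRCh38.p14). No window was read for EIF2S2, EIF3A, EIF3CL, EIF3E, EIF3G, EIF3H, EIF3L and EIF4EBP1, so nothing is said of their starts. EIF3E and EIF3H, named above as TOP genes, are thus not among the 41. The 41 genes have 56 windows, since 9 of them have several annotated starts, and a gene was counted if any of its starts had the run. A start with C followed by at least 4 further C or T, read on the gene's own strand only, was present in 9 of the 41 genes, or 22.0%. Among all genes listed in the libraries that have a window, 703 of 9391 had such a start, or 7.49%. Genes may have been left out of the members and of this wider set by different rules, so no enrichment is drawn from these shares. The windows below run from 10 bases before the start to 20 bases from it, and capitals mark the pyrimidine run that begins at the start.
EIF2A, chr3:150546777-150546806, plus strand: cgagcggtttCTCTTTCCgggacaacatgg
EIF2D, chr1:206612446-206612475, minus strand: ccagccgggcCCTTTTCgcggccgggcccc
EIF2S3, chrX:24054946-24054975, plus strand: gatttccttcCTCTTTTggcaacatggcgg
EIF3D, chr22:36529147-36529176, minus strand: cgcatgtttcCTCTTTTCCTggtttctcaa
EIF3F, chr11:7987327-7987356, plus strand: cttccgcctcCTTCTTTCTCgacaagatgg
EIF3K, chr19:38619178-38619207, plus strand: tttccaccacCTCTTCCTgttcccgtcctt
EIF3M, chr11:32583821-32583850, plus strand: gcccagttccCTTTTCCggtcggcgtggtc
EIF4A2, chr3:186783567-186783596, plus strand: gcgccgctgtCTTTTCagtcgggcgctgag
EIF4B, chr12:53006446-53006475, plus strand: tcatccgggtCTTTTgcgttctctttccct

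The 3 windows that follow belong to members that stood at 2-fold or more between the pulldown and input and have no such run at the start, shown for contrast. Of the 31 compared members with a window and no run, 4 were at 2-fold higher and 2 lower in the pulldown. Over all 7918 compared genes with a window and no run, 1556 were higher and 163 lower. The windows of EIF4G1, EIF2B5 and EIF1AD, all higher in the pulldown, are not printed.
EIF1AX, chrX:20141819-20141848, minus strand: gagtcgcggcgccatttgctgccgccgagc
EIF3B, chr7:2354817-2354846, plus strand: tcgcacgcacatggctgggctgtagccgtc
EIF5B, chr2:99337379-99337408, plus strand: ctgagaactcacaccatatgtgtcctgttc

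Levels are given as FPKM, which divides the fragments of a gene by its transcript length and by library size, so they can be compared between genes. Every ratio is a log2 ratio of FPKM plus 1, taken where a gene reached 1 FPKM in at least 1 library of the pair, and a gene at 1 or more or at -1 or less is counted as 2-fold higher or lower. The summed FPKM was 197844 in the pulldown, 338894 in input, 216346 in si_LINC00882 and 209725 in si_NC. The 13 mitochondrially encoded mRNAs took 3.08% of that sum in the pulldown, 47.3% in input, 19.3% in si_LINC00882 and 16.3% in si_NC, and with the pulldown and input rescaled without them the members past 2-fold in the pulldown numbered 5 higher and 3 lower, as without rescaling. The mesenchymal markers of this cell line were present, with AXL between 184 and 244 FPKM and VIM between 155 and 367 FPKM, and EPCAM lay between 2.24 and 10.5 FPKM. ERBB2 lay between 1.67 and 6.68 FPKM. ESR1, PGR, CDH1, PTPRC and HBB were looked for but are listed in none of the 4 libraries, so no level can be given. The liver gene ALB stood at 4.47 FPKM in the pulldown and was listed at 0 in input. In bulk RNA, fewer cells holding a transcript and less of it per cell cannot be told apart.

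Initiation factor transcripts were abundant in all 4 libraries. Their median level was 26.4 FPKM in the pulldown, 19.03 in input, 30.9 in si_LINC00882 and 34.8 in si_NC, where the median of all listed genes was 6.53, 4.02, 5.70 and 5.78 FPKM in the same order. Together they made up 0.980% of the FPKM outside mitochondrial genes in the pulldown, 1.07% in input, 1.24% in si_LINC00882 and 1.29% in si_NC. EIF2S2, the beta subunit of EIF2, was the highest of them in 3 libraries, with 284 FPKM in input, 155 in si_LINC00882 and 164 in si_NC. In the pulldown EIF5A, a hypusine-bearing factor that also acts in elongation, came first with 177 FPKM, and EIF2S2 stood at 139.

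**Figure D1:**
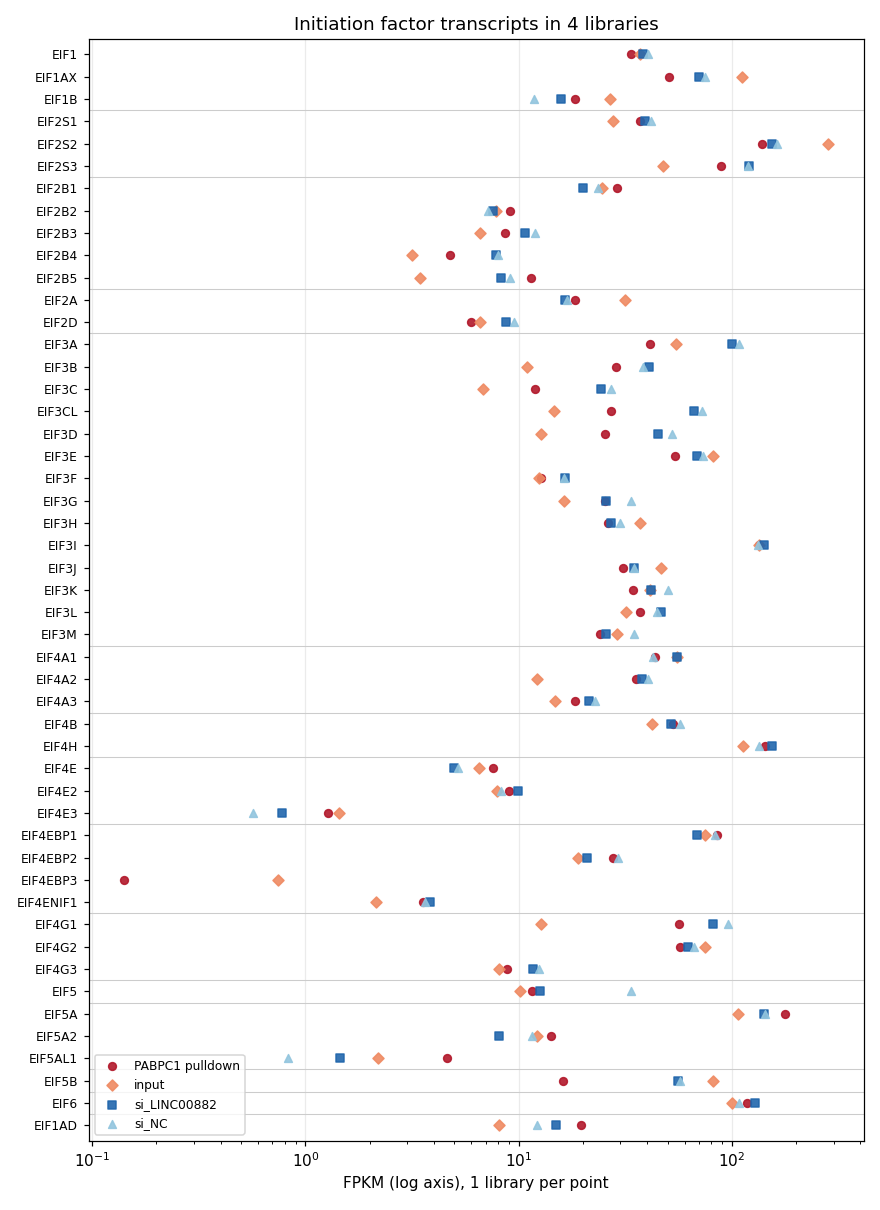
FPKM on a log axis for 49 initiation factor genes, grouped by factor, with 1 point per library. For EIF4G1 and the EIF3 subunits B, C, CL and D the input point lies lowest, EIF5 is highest in si_NC, and EIF5B is lowest in the pulldown. EIF4EBP3 has values in the pulldown and input only.

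The next comparison asked which initiation factor mRNAs were over- or under-represented in RNA that came down with the anti-PABPC1 beads. None of the libraries is a pulldown with a control antibody, so binding to PABPC1 cannot be told apart from background on the beads. EIF4G1, the scaffold that binds PABPC1, had the largest positive ratio among the initiation factors, and EIF5B, the GTPase of subunit joining, the largest negative one. Of the 48 members compared, 5 were at 2-fold higher in the pulldown (10.4%) and 3 at 2-fold lower (6.25%), beside 19.6% higher and 2.37% lower over all 10856 genes. The members' median was 0.21 and that of all genes 0.47, so 14 of the 48 lay above the median of all genes. With the ratios centred on the median of all genes, 3 members were higher and 6 lower and the members' median was -0.25. With both libraries rescaled to the same sum 21 were higher and 1 lower. The median of all genes was then 1.08 and that of the members 0.94, so the members still lay below all genes. Shares of all genes past 2-fold were not counted under these settings. The 8 genes past 2-fold kept the sign of their ratios under both settings, with EIF4G1 at 1.60 centred and 2.81 rescaled, and EIF5B at -2.74 centred and -1.52 rescaled. EIF4EBP3, at 0.141 FPKM in the pulldown and 0.742 in input, was below the minimum and was not compared.

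**Figure D2:**
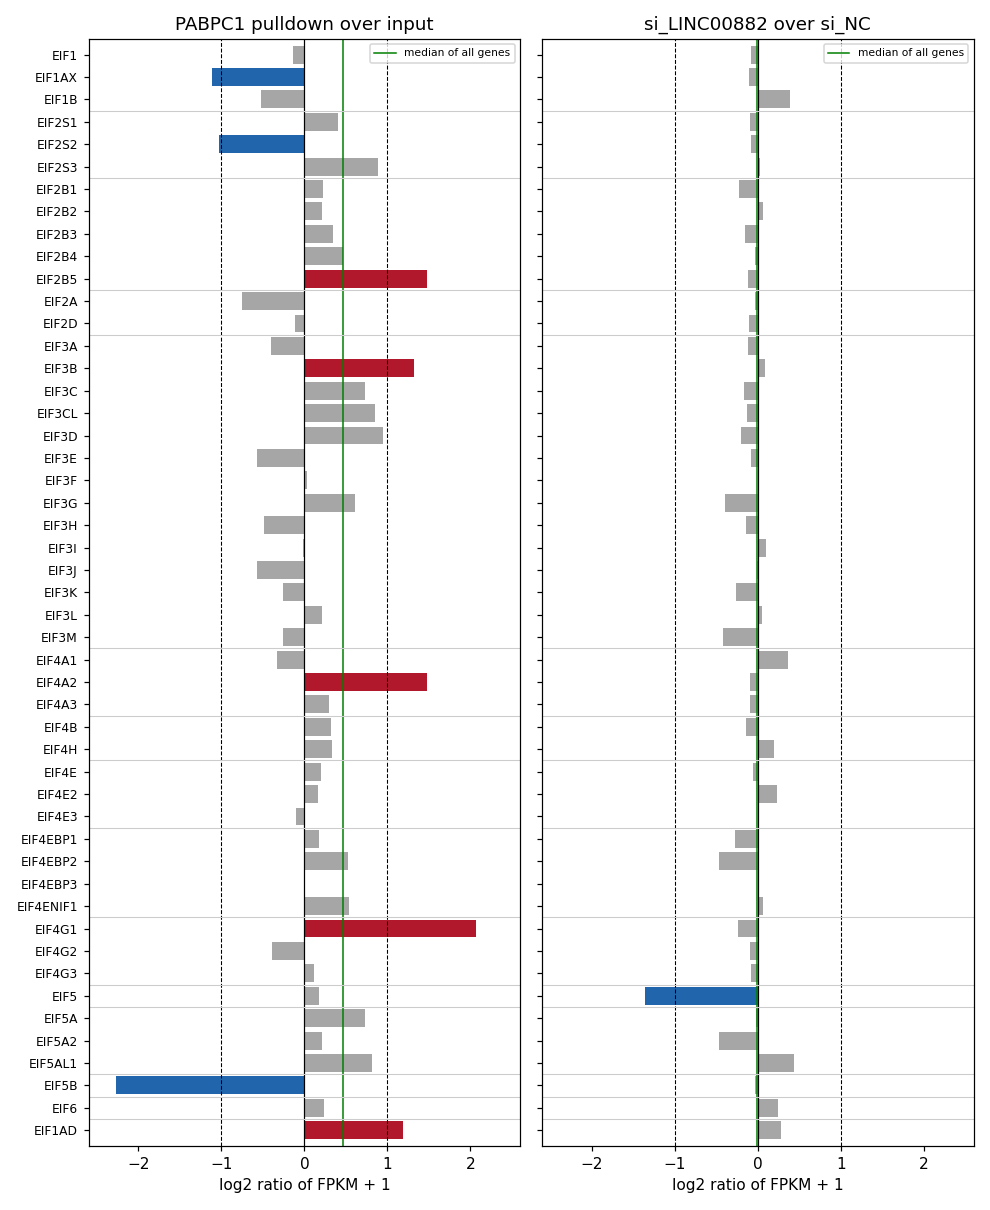
Log2 ratios of FPKM plus 1 for the pulldown over input (left) and si_LINC00882 over si_NC (right), 1 bar per gene, with dashed lines at 2-fold and a green line at the median of all genes. Bars past 2-fold are coloured, 5 higher and 3 lower on the left and 1 lower on the right, and genes not compared have no bar.

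Among the cap-binding group, EIF4G1 (ENSG00000114867.20_3 in the authors' tables) stood at 56.4 FPKM in the pulldown, against 12.7 in input (2.07). Its level was 81.5 FPKM in si_LINC00882 and 96.4 in si_NC, so input was the low library of the 4. EIF4G2, a relative that lacks the EIF4E and PABPC1 binding part, stood at 57.1 in the pulldown, against 74.98 in input (-0.39). EIF4G3, the close paralog of EIF4G1, stood at 8.81 in the pulldown, against 8.08 in input (0.11). EIF4G1 and EIF4G2 thus stood at like levels in the pulldown and apart in input, and EIF4G3 was low in both. EIF4A2, a helicase paralog of EIF4A1, stood at 35.6 FPKM in the pulldown, against 12.2 in input (1.47). Input was again the low library, since EIF4A2 stood at 37.9 FPKM in si_LINC00882 and 40.6 in si_NC. EIF4A1 itself stood at 43.5 in the pulldown, against 55.0 in input (-0.33). EIF4A2 therefore made up 45.0% of the summed FPKM of both helicase genes in the pulldown and 18.1% in input.

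EIF4A1 shares its span with the readthrough gene SENP3-EIF4A1, which stood at 15.0 FPKM in the pulldown and was listed at 0 in input, so the division of fragments between them is uncertain. The exon junction helicase EIF4A3 stood at 18.4 FPKM in the pulldown, against 14.9 in input (0.29). The helicase cofactor EIF4H stood at 143 FPKM in the pulldown, against 113 in input (0.33). Its partner EIF4B stood at 53.0 in the pulldown, against 42.3 in input (0.32). Both cofactors lay below the median ratio of all genes.

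The cap-binding protein EIF4E itself was low in level, with 7.57 FPKM in the pulldown, against 6.49 in input (0.20). Its paralog EIF4E2 stood at 8.98 FPKM in the pulldown, against 7.93 in input (0.16). EIF4E3 stood at 1.27 in the pulldown, against 1.44 in input (-0.10). The inhibitor gene EIF4EBP1, whose protein blocks EIF4E when mTOR is inactive, stood far higher than EIF4E in level, with 84.9 FPKM in the pulldown, against 75.1 in input (0.18). EIF4EBP2 stood at 27.7 in the pulldown, against 19.03 in input (0.52). EIF4ENIF1, the nuclear import partner of EIF4E, stood at 3.55 in the pulldown, against 2.14 in input (0.54). No member of the EIF4E group or of its inhibitors and partners reached 2-fold.

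The ratios of the EIF3 genes lay on both sides of 0. Of its 14 listed genes 1 was at 2-fold higher in the pulldown and none lower, beside 19.6% higher and 2.37% lower over all genes. The median of the EIF3 genes was 0.01 and that of all genes 0.47. EIF3B, a core subunit, stood at 28.8 FPKM in the pulldown, against 10.9 in input (1.32), and its span overlaps SNX8. It stood at 40.9 FPKM in si_LINC00882 and 38.5 in si_NC, above both of the other libraries. The subunits closest below the threshold were EIF3D, which can itself bind the cap, with 25.4 FPKM in the pulldown, against 12.7 in input (0.95), and the pair EIF3C and EIF3CL. EIF3C and EIF3CL are near-identical copies whose fragments cannot be divided with certainty, and their summed level was 39.1 FPKM in the pulldown, against 21.4 in input (0.84). EIF3G stood at 25.5 in the pulldown, against 16.4 in input (0.61).

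Other EIF3 subunits stood lower in the pulldown, none at 2-fold. With both libraries rescaled to the same sum all EIF3 ratios lay above 0, but the median of all genes was then 1.08. EIF3E stood at 54.2 FPKM in the pulldown, against 81.4 in input (-0.58). EIF3J stood at 30.9 in the pulldown, against 46.4 in input (-0.57). EIF3H stood at 26.4 in the pulldown, against 37.3 in input (-0.48). The largest subunit gene, EIF3A, belongs to the same side, with 41.2 in the pulldown, against 55.0 in input (-0.41). EIF3K (-0.26), EIF3M (-0.26), EIF3I (-0.01), EIF3F (0.03) and EIF3L (0.22) made up the remainder. EIF3I was the highest EIF3 transcript in every library, with 134 FPKM in the pulldown, 135 in input, 142 in si_LINC00882 and 133 in si_NC.

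The subunits of EIF2 differed in direction over input, although EIF2S1 (-0.06) lay near 0 when centred on the median of all genes and all 3 lay below 0 over si_NC. EIF2S2 stood at 139 FPKM in the pulldown, against 284 in input (-1.03). EIF2S3, the gamma subunit that binds GTP and the initiator tRNA, stood at 89.4 in the pulldown, against 47.8 in input (0.89). EIF2S1, the alpha subunit that stress kinases phosphorylate, stood at 37.1 in the pulldown, against 27.8 in input (0.40). EIF2S2 accordingly took 52.3% of the summed FPKM of the 3 subunits in the pulldown and 79.0% in input, and 49.2% in si_LINC00882 and 50.5% in si_NC.

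All 5 genes of EIF2B, the exchange factor that reloads EIF2 with GTP, had ratios above 0, but those of EIF2B1, EIF2B2, EIF2B3 and EIF2B4 lay between 0.21 and 0.46 and lay below 0 when centred on the median of all genes. The catalytic subunit gene EIF2B5 was at 2-fold, with 11.4 FPKM in the pulldown, against 3.44 in input (1.48), and stood at 8.31 FPKM in si_LINC00882 and 9.06 in si_NC. EIF2B1 was the highest of them, with 28.8 FPKM in the pulldown, against 24.6 in input (0.22). EIF2A, a separate factor that can also deliver initiator tRNA, stood at 18.3 in the pulldown, against 31.4 in input (-0.75). EIF2D, which acts in non-canonical initiation and recycling, stood at 6.01 in the pulldown, against 6.56 in input (-0.11).

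Of the factors for scanning and subunit joining, EIF5B (ENSG00000158417.10_2) stood at 16.2 FPKM in the pulldown, against 82.0 in input (-2.27). Its level was 55.7 FPKM in si_LINC00882 and 57.1 in si_NC, so the pulldown library was the lowest of the 4. Its span overlaps REV1, which stood at 4.72 FPKM in the pulldown, against 2.93 in input. EIF1AX, the scanning factor EIF1A, stood at 50.9 FPKM in the pulldown, against 112 in input (-1.12). It stood at 69.9 FPKM in si_LINC00882 and 75.2 in si_NC, between the pulldown and input. EIF1 stood at 33.6 in the pulldown, against 37.2 in input (-0.14), and its paralog EIF1B at 18.4 in the pulldown, against 26.8 in input (-0.52). All 3 genes of the EIF1 group were thus on the low side. With both libraries rescaled to the same sum EIF1 (0.61) and EIF1B (0.22) lay above 0 but below the median of all genes (1.08). Over si_NC, EIF1B (0.60) lay above 0.

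EIF5, which triggers GTP hydrolysis on EIF2, stood at 11.6 FPKM in the pulldown, against 10.1 in input (0.17). EIF5A stood at 177 in the pulldown, against 107 in input (0.72). The paralog EIF5A2 stood at 14.3 in the pulldown, against 12.1 in input (0.22). EIF5AL1, a near copy of EIF5A whose fragments are hard to assign, stood at 4.62 in the pulldown, against 2.20 in input (0.81). EIF6, which keeps free large subunits from joining, stood at 117 in the pulldown, against 99.7 in input (0.23). None of these 5 reached 2-fold. EIF1AD, which is named for a domain like that of EIF1A and is included by the name rule, stood at 19.7 FPKM in the pulldown, against 8.08 in input (1.19), and at 15.0 FPKM in si_LINC00882 and 12.1 in si_NC.

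The 9 genes with a pyrimidine run at the start did not share one ratio. Their median was 0.03 between the pulldown and input, with a range of -0.75 for EIF2A to 1.47 for EIF4A2. The 31 compared members with a window and no such run had a median of 0.22 and a range of -2.27 for EIF5B to 2.07 for EIF4G1. Over all compared genes the medians were 0.34 for 654 genes with the run and 0.47 for 7918 genes with a window and no run. Among the known TOP members, EIF3F and EIF4B show the run in the windows printed above, and the 4 genes EIF3E, EIF3F, EIF3H and EIF4B had a median of -0.22 and ratios from -0.58 to 0.32. Between si_LINC00882 and si_NC the medians were -0.11 for the 9 genes with the run and -0.04 for the 30 compared genes without it.

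The result of the pulldown depended on the control library. The si_NC library is from transfected cells and its file lists another set of genes, and comparisons with it share the pulldown library with those above. EIF4G1 stood at 56.4 FPKM in the pulldown, against 96.4 in si_NC (-0.76), so its ratio changed sign with this control. EIF3B (-0.41) and EIF4A2 (-0.18), also 2-fold higher over input, changed sign too. Among members within 2-fold over input, EIF2S3 (-0.41) and EIF2S1 (-0.17) turned from above to below 0, and EIF1B (0.60) from below to above 0. EIF2B4 (-0.65) and EIF2B3 (-0.43) lay below 0 here and above 0 over input, as did EIF3G (-0.39), and EIF2A (0.11) turned the other way. Further members changed sign as well. EIF5B kept its position, with 16.2 FPKM in the pulldown, against 57.1 in si_NC (-1.76). EIF1AX (-0.55), EIF2S2 (-0.24), EIF1AD (0.66) and EIF2B5 (0.30) kept their direction and were within 2-fold.

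Over si_NC, 6 of 48 members were at 2-fold lower in the pulldown (12.5%) and 1 higher (2.08%), beside 2.48% lower and 7.16% higher over all 10810 genes. Those lower were EIF5B, EIF5 (-1.47), EIF3CL (-1.38), EIF3A (-1.37), EIF3C (-1.13) and EIF3D (-1.01). Of these, EIF5, EIF3CL, EIF3C and EIF3D had ratios above 0 over input. EIF3CL and EIF3C are near-identical copies that were counted apart, and their summed level had a ratio of -1.33 over si_NC. EIF3A stood at 41.2 FPKM in the pulldown, against 108 in si_NC. The 1 higher was EIF5AL1, which stood at 4.62 FPKM in the pulldown, against 0.825 in si_NC (1.62), and passed the minimum only through the pulldown. The members' median was -0.20 and that of all genes 0.16.

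**Figure D3:**
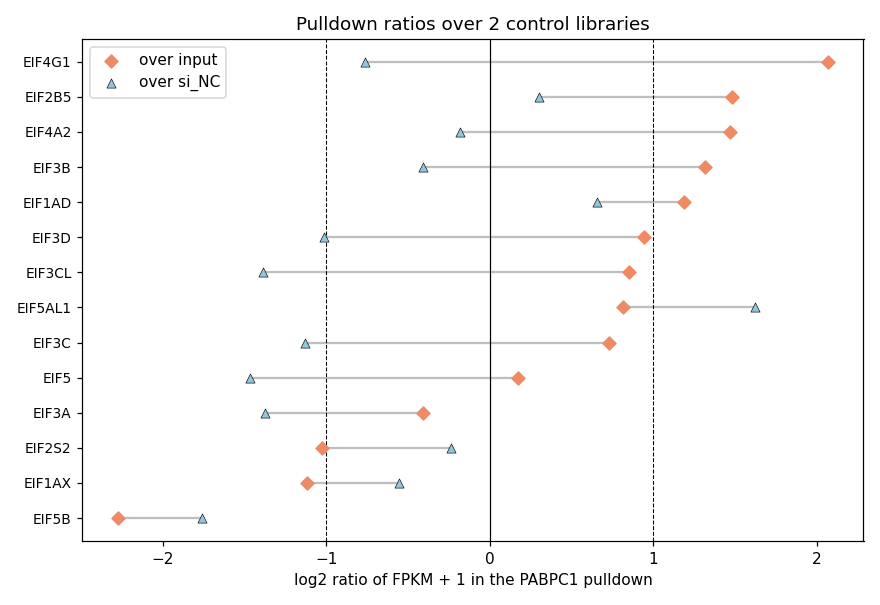
Log2 ratios of FPKM plus 1 in the pulldown over input (diamonds) and over si_NC (triangles) for the 14 initiation factor genes at 2-fold in either, with a grey line joining both values of a gene. EIF5B lies beyond -1 over both controls, and EIF4G1 lies at 2.07 over input and -0.76 over si_NC.

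Input and si_NC, neither of them a pulldown or a LINC00882 silencing, show how far libraries of this line differed. Of 48 members 11 were at 2-fold lower in input (22.9%) and 1 higher (2.08%), beside 19.2% lower and 5.95% higher over all 10511 genes. EIF4G1 stood at 12.7 FPKM in input, against 96.4 in si_NC (-2.83), the largest of these differences. Subunits of EIF3 followed, among them EIF3CL with 14.6 in input, against 72.5 in si_NC (-2.23), EIF3D (-1.96), EIF3C (-1.86), EIF3B (-1.73) and EIF3G (-1.002). The summed level of the near-identical copies EIF3C and EIF3CL, counted apart here, had a ratio of -2.17. EIF4A2 (-1.66), EIF5 (-1.64), EIF2S3 (-1.30), EIF2B5 (-1.18) and EIF2B4 (-1.12) completed the genes lower in input. EIF1B stood at 26.8 FPKM in input, against 11.8 in si_NC (1.12). These ratios share the input library with those of the pulldown over input.

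**Figure D4:**
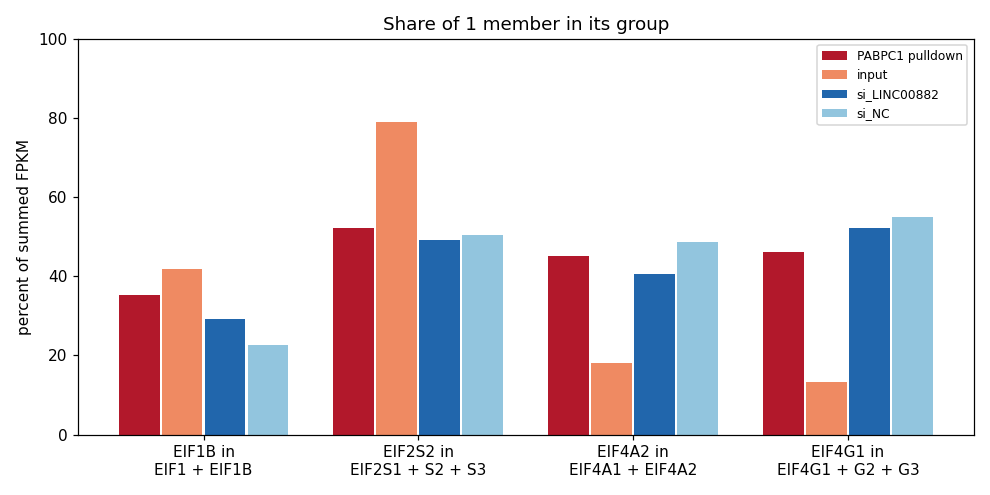
Share of 1 gene in the summed FPKM of its paralog or subunit group, in percent, with 1 bar per library. Input stands apart from the other 3 libraries for EIF2S2 (79.0%), EIF4A2 (18.1%) and EIF4G1 (13.2%), and EIF1B is highest there (41.9%).

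The other comparison asked which initiation factor mRNAs differed after LINC00882 silencing, and EIF5 stood apart. EIF5 (ENSG00000100664.10_3) stood at 12.5 FPKM in si_LINC00882, against 33.7 in si_NC (-1.36). Its level was 11.6 FPKM in the pulldown and 10.1 in input, so si_NC was the high library and the other 3 lay together. Of 47 members compared, 1 was at 2-fold lower (2.13%) and 0 higher, beside 1.15% lower and 0.859% higher over all 10478 genes, so the members' count was near the background. The members' median was -0.08 and that of all genes -0.01. With input, whose file lists another set of genes, in place of si_NC, EIF5 stood at 12.5 FPKM in si_LINC00882, against 10.1 in input (0.28). In that setting 9 of 48 members were at 2-fold higher in si_LINC00882 (18.8%) and 0 lower, beside 19.1% higher and 5.99% lower over all genes.

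Apart from EIF5, all 46 other members compared were within 0.5 of equal levels on the log2 scale. Within 0.25 were 36 of the 47, or 76.6%, beside 68.9% of all genes. The members farthest below 0 after EIF5 were EIF4EBP2, with 20.9 FPKM in si_LINC00882, against 29.3 in si_NC (-0.47), and EIF5A2, with 8.09 in si_LINC00882, against 11.5 in si_NC (-0.46). EIF3M stood at 25.8 FPKM in si_LINC00882, against 34.9 in si_NC (-0.42). EIF3G stood at 25.6 in si_LINC00882, against 33.8 in si_NC (-0.39). EIF4EBP1 stood at 68.8 in si_LINC00882, against 83.5 in si_NC (-0.28). On the other side, EIF5AL1 had the highest ratio (0.43) at levels of 1.46 FPKM in si_LINC00882 and 0.825 in si_NC. It passed the minimum only through si_LINC00882.

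EIF1B stood at 15.8 FPKM in si_LINC00882, against 11.8 in si_NC (0.39), and EIF4A1 at 55.4 in si_LINC00882, against 42.9 in si_NC (0.36). EIF4A2 made up 40.6% of the summed FPKM of EIF4A1 and EIF4A2 in si_LINC00882 and 48.6% in si_NC. By factor, the medians were -0.12 for the 14 EIF3 genes, -0.11 for the 5 EIF2B genes, -0.08 for the 3 EIF2 subunits and -0.09 for the 3 EIF4G genes. Among groups of several genes, the EIF4E inhibitors and partners had the lowest median (-0.28). The EIF4E group (0.09) and EIF4B with EIF4H (0.02) had medians above 0. EIF4G1 stood at 81.5 FPKM in si_LINC00882, against 96.4 in si_NC (-0.24). EIF5B stood at 55.7 in si_LINC00882, against 57.1 in si_NC (-0.04). EIF6 (0.25), EIF4E2 (0.23) and EIF4H (0.19) lay slightly above 0. EIF4E3, at 0.778 FPKM in si_LINC00882 and 0.566 in si_NC, was below the minimum and was not compared.

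Of a list of 31 regulators and partners of initiation, 4 were at 2-fold higher in the pulldown than in input and 1 lower, beside 19.6% higher and 2.37% lower over all genes. Their median was 0.51 and that of all genes 0.47. DDX3X, a helicase that aids translation of structured mRNAs, stood at 33.0 FPKM in the pulldown, against 2.46 in input (3.29). RPS6KB1, the S6 kinase downstream of mTOR, stood at 9.66 in the pulldown, against 1.63 in input (2.02). PDCD4, which inhibits EIF4A, stood at 5.90 in the pulldown, against 1.87 in input (1.26). BZW1, a protein that mimics EIF5, stood at 25.4 in the pulldown, against 10.4 in input (1.21). The one lower was DHX29, a helicase for scanning, with 10.6 FPKM in the pulldown, against 23.7 in input (-1.09). MTOR (0.99), RPTOR (0.97), PPP1R15A (0.95) and PABPC4 (-0.97) lay just within 2-fold, and PABPC1 mRNA had a ratio of -0.69.

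Over si_NC, 2 of the 31 regulators were at 2-fold higher in the pulldown and 2 lower, beside 7.16% higher and 2.48% lower over all genes. The 2 higher were PAIP2, an inhibitor of PABPC1, with 31.3 FPKM in the pulldown, against 13.2 in si_NC (1.19), and MKNK2 (1.05). PAIP2 was lower in the pulldown over input (-0.79), and both genes are named here after their values over si_NC were seen. DDX3X (-1.22), PDCD4 (-0.85) and BZW1 (-0.46) had ratios below 0 over si_NC, RPS6KB1 stood at 0.09 and DHX29 at -1.05. DHX29 was thus lower in the pulldown with either control, at 18.7 FPKM in si_LINC00882 and 22.9 in si_NC. After LINC00882 silencing 1 of the 30 compared regulators was at 2-fold lower and 0 higher, beside 1.15% lower and 0.859% higher over all genes. It was DDX3X, with 34.2 FPKM in si_LINC00882, against 78.2 in si_NC (-1.17). CYFIP1, a partner of EIF4E (-0.82), PDCD4 (-0.64), the EIF4E kinase gene MKNK2 (0.58) and PPP1R15A, which directs removal of phosphate from EIF2S1 (0.56), came next.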

How the data were processed

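The 4 deposited files each give FPKM per gene for 1 library, per the file headers. The build GRCh37 and the tools StringTie 1.3.3, HISAT2 2.1.0, cutadapt 1.17 and FastQC 0.11.7 are named in the submitters' processing notes, with no roles. The sources used here do not give read depth, annotation version or filters, so counting error is unknown. Gene lists are shared within a pair, with 11712 genes for the pulldown and input and 11695 for both transfected libraries, holding 49 and 48 members. Groups came from the sample labels. Log2 ratios of FPKM plus a pseudocount of 1 were computed from the values as deposited, for genes that reached 1 FPKM in at least 1 library of a pair. The members and lists were chosen with earlier results of these data known. Members past 2-fold, the 12 highest by mean level and those needed to describe each factor are named with values; of the regulators, PABPC1, those past 2-fold and 4 others per pair with at least 5 FPKM. Symbols of all 49 members matched RefSeq (GRCh38.p14), used for names, overlaps and start sequences. Alternatives changed the pseudocount, minimum, scaling, size rule, control library and members. Only the ratio step was tested on simulated data, with 4-fold changes set into genes of at least 5 FPKM. Software was matplotlib 3.10.9, pandas 2.3.3, numpy 2.4.6 and Python 3.11.15.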

Additional observations from a re-analysis of the deposited data

How the results depend on the processing

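No paired analysis was possible because each group was 1 library. Depth is unknown, so counting error could not be given. For the pulldown over input (5 members higher, 3 lower, median 0.21), the number higher was 3 with a pseudocount of 5, 12 with a 1.5-fold rule and 1 with a 3-fold rule, which also left 1 lower. Centring on the median of all genes gave 3 higher, 6 lower and a median of -0.25. Rescaling to the same sum gave 21 higher, 1 lower and a median of 0.94, where the median of all genes was 1.08. With a pseudocount of 5 the medians were 0.17 for members and 0.25 for all genes. Shares of all genes were not counted under changed pseudocounts, scalings or size rules. The si_NC control gave 1 higher, 6 lower and a median of -0.20, and turned EIF3B (-0.41), EIF4A2 (-0.18) and EIF4G1 (-0.76) among members past 2-fold. Among the others it turned EIF3D (-1.01), EIF3CL (-1.38), EIF3C (-1.13) and EIF5 (-1.47) to 2-fold lower, EIF2S3 to -0.41 and EIF1B to 0.60, and other members changed sign as well. For si_LINC00882 over si_NC (0 higher, 1 lower, median -0.08), a 3-fold rule left 0 lower. Input as the control gave 9 higher (18.8%, beside 19.1% over all genes) and 0 lower. The median was then 0.29, beside 0.28 over all genes, and EIF5 stood at 0.28. The causes were not tested. A pseudocount of 0.1, other minimums, rescaling without mitochondrial genes, and leaving out near-identical copies or, added after seeing the data, the 10 members that overlap another listed gene moved no count over 1.5 times and no median by over 0.1. EIF4EBP3 was below the 1 FPKM minimum, and without a minimum it was not past 2-fold.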
